A study of Mus musculus with 2 samples.

Results

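Described here are 45 genes of cell division in the forebrain of newborn mice: cyclins, cyclin-dependent kinases (CDKs) and their inhibitors, mitotic kinases, and genes of the spindle checkpoint, kinetochore and cytokinesis. They were taken by name from a list of such genes, and all 45 were found among the 55536 genes of annotation release M21. By role, 7 were G1 cyclins and CDKs, 6 belonged to the S, G2 and M machinery around Cdk1, and 3 were CDK inhibitors. A further 4 were mitotic kinases, 4 made up the chromosomal passenger complex, 3 served the spindle checkpoint and 4 acted with the anaphase-promoting complex (APC/C). The centromere and kinetochore held 7, the spindle and cytokinesis 6, and Mki67 stood alone as a proliferation marker. The tissue was whole forebrain of B6NCrl mice at an age of 0 days, with no treatment and no modified allele in the labels. Polyadenylated RNA was sequenced from pup 1 (replicate 1) and pup 3 (replicate 2), 1 forebrain per library and 10 ng of RNA each. Sex was not collected, both pups carry the same donor identifier, and the 2 libraries form 1 group. No test between groups exists in such a design, so differences between the pups are given by size and no p-value is given.

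A cell enters division when D-type cyclins with Cdk4 or Cdk6, and then cyclin E with Cdk2, phosphorylate the RB family and release E2F factors that switch on the genes of DNA replication. Cyclin A and cyclin B with Cdk1 then carry the cell through G2 into mitosis, where Aurora and Polo-like kinases build the spindle, the checkpoint holds the APC/C until every kinetochore is attached, and separase cuts the cohesin that joins sister chromatids. In the forebrain at birth, dividing cells lie mainly in the germinal zones along the ventricles and among glial precursors, while most neurons have left the cycle.

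Many genes of late G2 and mitosis are known to share 2 promoter elements, the cell cycle genes homology region (CHR, the letters TTTGAA), bound by the MuvB core of the DREAM complex, and CCAAT boxes, bound by NF-Y. The stretches below show these letters in 8 genes of mitosis, and their lack in 2 genes of G1, and were picked after the matches had been seen. Each stretch gives the 120 bases before the transcription start and the first 30 transcribed bases, from RefSeq promoters of build GRCm38.p6, 5′ to 3′ on the strand of the gene. Capitals mark TTTGAA and CCAAT on the printed strand, or TTCAAA and ATTGG where the match lies on the other strand.
Ccnb2, chr9:70421525-70421674, minus strand: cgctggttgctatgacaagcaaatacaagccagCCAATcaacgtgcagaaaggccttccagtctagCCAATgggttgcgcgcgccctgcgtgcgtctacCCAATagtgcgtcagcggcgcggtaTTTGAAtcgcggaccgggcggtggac
Cdk1, chr10:69352883-69353032, minus strand: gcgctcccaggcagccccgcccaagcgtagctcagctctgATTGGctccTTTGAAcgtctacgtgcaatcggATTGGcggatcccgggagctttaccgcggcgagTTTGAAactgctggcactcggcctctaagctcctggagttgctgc
Cdc20, chr4:118437314-118437463, minus strand: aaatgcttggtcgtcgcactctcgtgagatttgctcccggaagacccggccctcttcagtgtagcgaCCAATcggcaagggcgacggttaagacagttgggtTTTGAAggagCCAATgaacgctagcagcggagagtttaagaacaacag
Ttk, chr9:83834569-83834718, plus strand: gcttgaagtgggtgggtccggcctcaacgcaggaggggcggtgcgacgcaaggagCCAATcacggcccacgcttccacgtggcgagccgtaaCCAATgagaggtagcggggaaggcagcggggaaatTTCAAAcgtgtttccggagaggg
Cenpa, chr5:30666766-30666915, plus strand: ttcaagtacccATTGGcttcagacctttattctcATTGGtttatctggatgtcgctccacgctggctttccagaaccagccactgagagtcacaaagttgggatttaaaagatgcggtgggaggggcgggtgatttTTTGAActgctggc
Cenpf, chr1:189688057-189688206, minus strand: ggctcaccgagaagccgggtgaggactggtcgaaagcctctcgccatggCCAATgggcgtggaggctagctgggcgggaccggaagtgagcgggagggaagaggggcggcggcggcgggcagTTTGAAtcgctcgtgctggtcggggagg
Cdca8, chr4:124936888-124937037, minus strand: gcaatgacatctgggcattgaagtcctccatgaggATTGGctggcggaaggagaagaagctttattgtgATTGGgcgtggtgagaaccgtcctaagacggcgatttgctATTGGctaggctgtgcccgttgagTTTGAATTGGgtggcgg
Racgap1, chr15:99651627-99651776, minus strand: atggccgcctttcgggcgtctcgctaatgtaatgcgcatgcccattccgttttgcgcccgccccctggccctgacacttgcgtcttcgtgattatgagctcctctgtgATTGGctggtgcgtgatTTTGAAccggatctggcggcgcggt
Cdk4, chr10:127063415-127063564, plus strand: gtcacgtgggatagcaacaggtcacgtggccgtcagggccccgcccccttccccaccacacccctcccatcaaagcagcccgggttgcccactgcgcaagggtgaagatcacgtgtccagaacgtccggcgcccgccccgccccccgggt
Ccne1, chr7:38107461-38107610, minus strand: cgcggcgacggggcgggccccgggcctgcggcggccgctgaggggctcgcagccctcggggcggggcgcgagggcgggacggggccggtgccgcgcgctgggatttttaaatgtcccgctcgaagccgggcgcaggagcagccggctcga

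Ccnb2 and Cdk1, the cyclin and the kinase of mitotic entry, show the arrangement in full, with CCAAT letters upstream and TTTGAA close to the start. In Ccnb2 the CCAAT matches began at -87, -54 and -21, counted from the first transcribed base as 0, and TTTGAA began at 4. In Cdc20, the activator of the APC/C, TTTGAA stood before the start, at -18, between a pair of CCAAT matches at -53 and -8. In Cdca8, which encodes borealin, TTTGAA at 13 overlapped the last of 4 CCAAT matches, at 18. The Cdk4 and Ccne1 stretches, from genes of G1, held neither word.

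RefSeq promoters, taken from 250 bases before to 50 after the start, were matched for 37 of the 45 genes, with 42 promoters in all. Ccnd1, Ccnd2, Ccna2, Cdc25c, Aurkb, Incenp, Spc24 and Tpx2 had no entry. Each word was searched on both strands. TTTGAA (reverse complement TTCAAA) occurred in 25 of the 42 promoters, or 59.5%, against 11.5% of 13543 promoters of expressed protein-coding genes (1 TPM or more on average) and 17.9% of all 32851 promoters. Between 50 bases before and 50 after the start it occurred in 52.4%, against 2.84% and 4.94%. CCAAT (in reverse, ATTGG) occurred in 71.4%, against 37.5% and 37.4%, and 2 or more CCAAT matches in 47.6%, against 13.8% and 11.7%. Both words together occurred in 54.8% of the promoters, against 4.66% and 6.95%. A match is a description of letters, not a site.

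TTTGAA was not spread evenly over the roles. It occurred in none of the 5 G1 cyclins and CDKs with an entry, in 1 of the 3 CDK inhibitors (Cdkn3) and in 21 of the 29 genes of all other roles. All 5 spindle and cytokinesis genes with an entry (Hmmr, Prc1, Anln, Ect2 and Racgap1) held it. CCAAT occurred in 2 of the 5 G1 genes (Ccnd3 and Cdk2), in 2 of the 3 CDK inhibitors and in 23 of the 29 others. Among those 29, Birc5, Mad2l1, Pttg1 and Nuf2 held neither word. Both promoters of Bub3, Ect2 and Prc1 overlap, so the counts over 42 promoters hold some of the same letters more than once. With 1 promoter per gene, 21 of 27 TTTGAA matches lay within 50 bases of the start, and 47 of 60 CCAAT matches lay in the 150 bases upstream. Among the 20 promoters with 2 or more CCAAT matches, 8 held neighbours whose first bases lay 30 to 36 bases apart, or 40.0%, against 19.5% of 1863 such promoters of expressed protein-coding genes. This window was chosen after the distances had been seen. The spacing was 33 bases in Ccnb2 and Hmmr, 32 in Cdk1, Aurka, Ccnb1 and Spc25, 34 in Cdca8 and 31 in Ube2c.

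**Figure D1:**
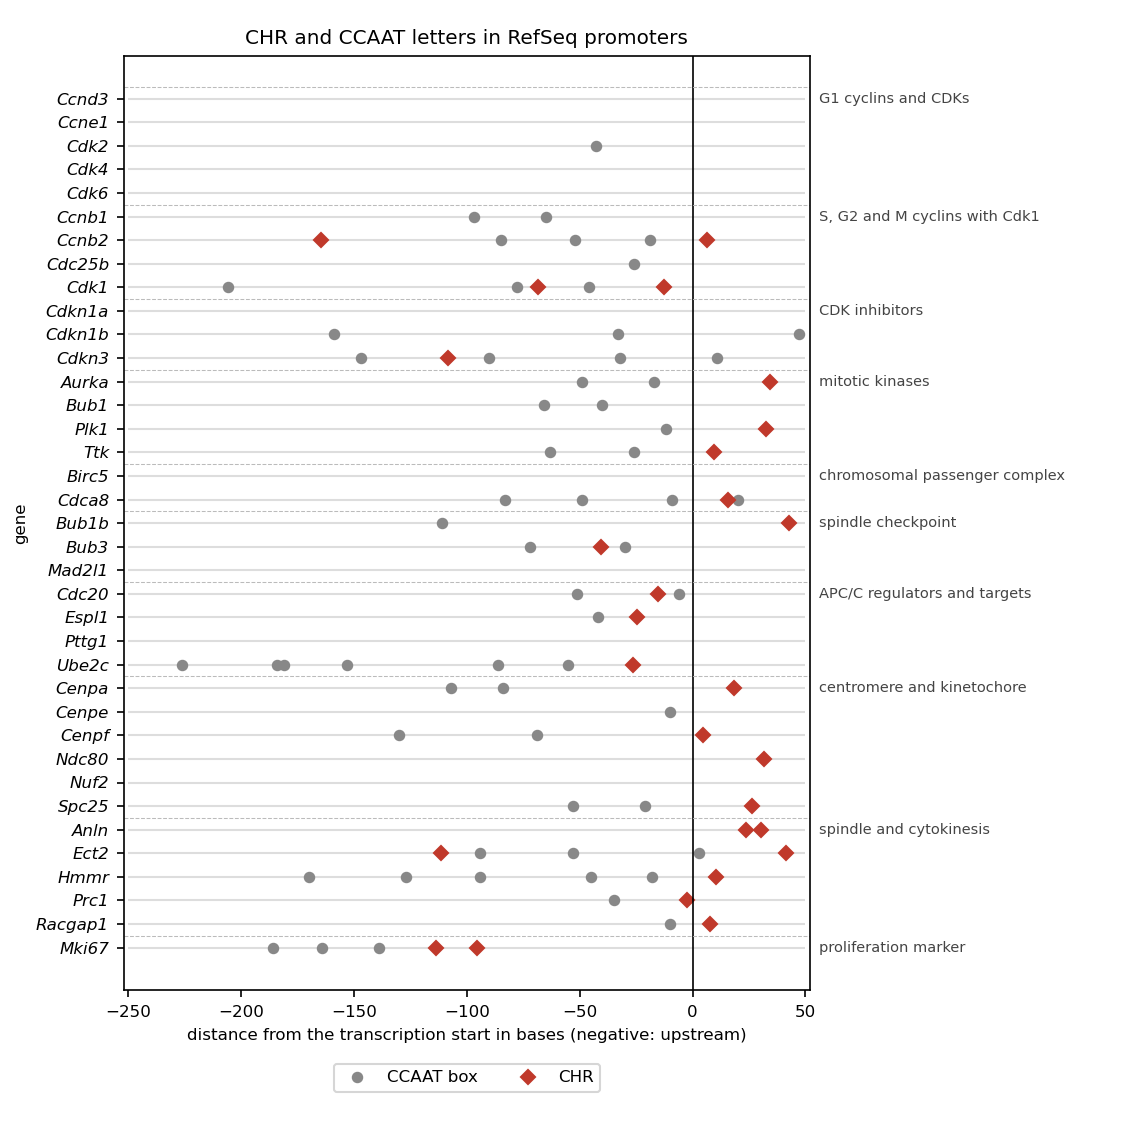
Positions of TTTGAA (CHR, red diamonds) and CCAAT (grey circles) letters on either strand in the first listed RefSeq promoter of each of 37 genes, grouped by role, with distance from the transcription start in bases on the x axis and the start at 0. CCAAT letters lie mostly upstream and TTTGAA letters mostly within 50 bases of the start, and the G1 cyclins and CDKs at the top hold no TTTGAA.

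Other words separated the genes less. The core of the cell cycle dependent element, GGCGG (in reverse, CCGCC), occurred in 92.9% of the promoters, against 79.2% of those of expressed protein-coding genes. GGCGG followed after 4 bases by TTTGAA, a tandem form of the element, occurred in 1 promoter, that of Cenpf, or 2.38%, against 0.0591%. Other letters at the core were not searched. Cdk1 holds CGCGG with 4 bases between it and the TTTGAA at -15, which this search did not count. An E2F word (the letters TTCCCGC, or the letters TTCGCGC, or the letters TTGCCGC, or the letters TTGGCGC, or the reverse complement of one) occurred in 16.7%, against 16.2%, and TATAAA (in reverse, TTTATA) in 2.38%, against 7.07%. E2F words can overlap CCAAT and GGCGG matches. The 22 genes with TTTGAA had a median of 9.22 TPM and the 15 without it 16.7 TPM, given as a description.

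The libraries held 40964891 expected counts in pup 1 and 41230878 in pup 3, so 1 count equals 0.0244 or 0.0243 CPM (counts scaled to library size). Levels below are in TPM (transcripts scaled to a fixed total), which are corrected for length and can be compared between genes. Forebrain markers were present: all 8 markers of the telencephalon passed a TPM of 1 in both pups and none of 8 markers of the midbrain, hindbrain and spinal cord did, with Hoxa2, Hoxa5, Hoxb2 and Hoxb3 listed at 0. The pups were of different sex by their transcripts, with 2 counts of Xist in pup 1 and 4428 in pup 3 and 3115 and 0 counts of the Y-linked Ddx3y. Sex and pup cannot be told apart here.

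All 45 genes were detected, meaning that neither pup fell under 1 TPM, a level that 26.6% of all 55536 genes and 59.5% of 22028 protein-coding genes passed. Together they took 60086 counts in pup 1 and 64129 in pup 3, or 0.147% and 0.156% of each library. The median level was 12.6 TPM in pup 1 and 9.84 TPM in pup 3, 11.3 ± 1.93 TPM on average (SD, n = 2 pups here and throughout). That lies under the median of 16.3 TPM over the 13474 expressed protein-coding genes, and 26 of the 45 genes stood below it. In bulk RNA, few dividing cells and little RNA per dividing cell cannot be told apart.

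Levels spanned the range from 585 ± 61.2 TPM for Cdk4 to 1.56 ± 0.403 TPM for Espl1. Cdk4 and Ccnd2 alone made up 53.6% of the summed TPM of the 45 genes in pup 1 and 56.8% in pup 3. Between 5 and 50 TPM stood 31 genes, and 10 stood under 5 TPM. The order of the genes was close in both pups, with a Spearman rho of 0.982 and a Pearson r of log2(TPM + 1) of 0.987 across the 45 genes, which are not independent replicates. In that order, 33 of the 44 pairs of neighbours had pup values that overlapped, so their order is not resolved. Genes with longer transcripts stood lower, with a Spearman rho of -0.65 between mean TPM and mean transcript length across the 45 genes, against -0.31 across protein-coding genes. TPM divides by length, so these 2 quantities are not independent.

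**Figure D2:**
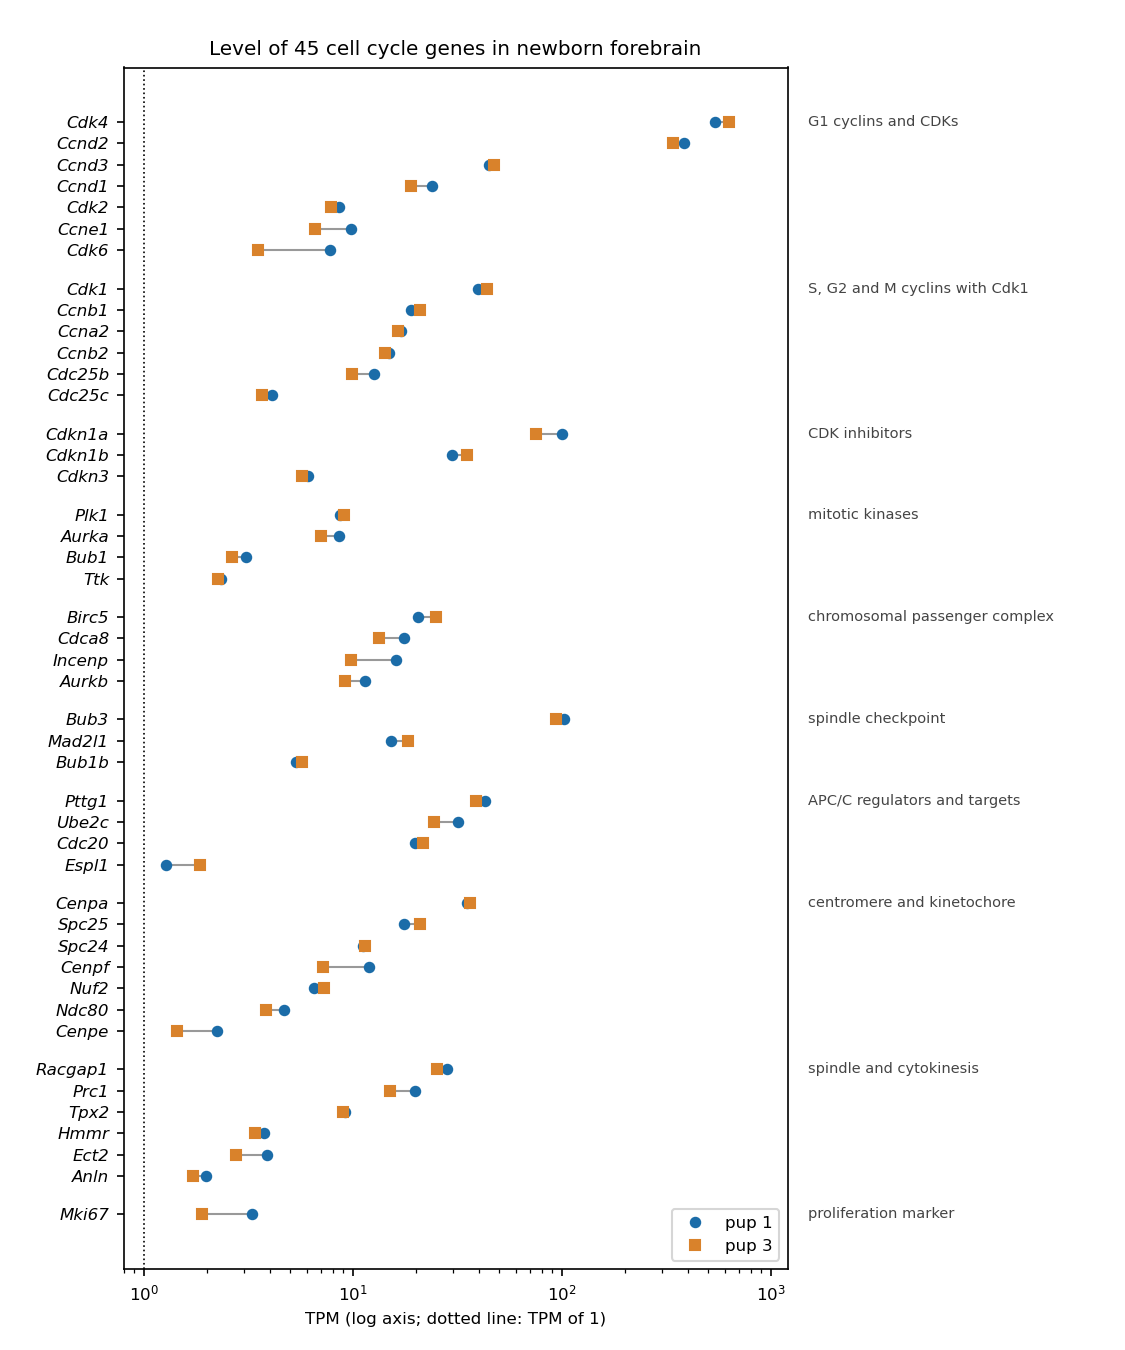
TPM (log axis) of each of the 45 genes in pup 1 (blue circles) and pup 3 (orange squares), joined by a line and grouped by role, with a dotted line at a TPM of 1. Cdk4 and Ccnd2 stand above 300 TPM in both pups, the other genes under 110 TPM, and no gene falls under 1.

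The G1 machinery held the highest genes of the set. Cdk4, the kinase partner of D-type cyclins, lies at chr10:127063534-127067920 and had 542 TPM in pup 1 and 628 TPM in pup 3, on 10717 and 13761 counts. Ccnd2 (cyclin D2, chr6:127125162-127152193, all such positions on mm10), a D-type cyclin known from cortical progenitors, had 386 and 342 TPM. Both stood far above every other gene of the list in each pup. Among the D-type cyclins the order was Ccnd2, Ccnd3 and Ccnd1 in both pups. Ccnd3 had 44.6 and 47.4 TPM and Ccnd1 had 24.0 and 19.0 TPM, with no overlap between these genes. Ccnd2 over Ccnd1 gave a log2 ratio of 4.00 in pup 1 and 4.16 in pup 3, a mean of 4.08 ± 0.11. With annotation release M4, in place of M21, Ccnd2 was at 78.9 and 67.0 TPM and the ratio at 1.74, which left Ccnd2 the highest D-type cyclin but below Bub3 and Cdkn1a.

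Cdk6, the other partner of D-type cyclins, was the lowest in TPM of the 7 G1 cyclins and CDKs in both pups. It had 7.74 TPM in pup 1 and 3.51 TPM in pup 3, on 946 and 621 counts. In counts Ccne1 (480 and 367) and Cdk2 (496 and 522) were lower. On coding transcripts Cdk2 was lower in pup 1, at 7.37 TPM against 7.66 TPM of Cdk6. The log2 ratio of Cdk4 to Cdk6 was 6.11 and 7.44, a mean of 6.78 ± 0.94, the widest in TPM of the 20 gene pairs compared. Counted on protein-coding transcripts alone it was 5.04, below the 5.09 of Pttg1 over Espl1. The next step of G1, cyclin E with Cdk2, was represented at single-digit levels: Ccne1 had 9.77 and 6.56 TPM and Cdk2 had 8.55 and 7.87 TPM. These values overlap, so the order of Ccne1 and Cdk2 is not resolved.

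Cyclins of S phase and mitosis lay close together. Cdk1 (chr10:69335146-69352938), the kinase that drives entry into mitosis, had 39.4 TPM in pup 1 and 44.0 TPM in pup 3. Its cyclins followed: Ccnb1 (cyclin B1) had 18.9 and 20.9 TPM, Ccna2 (cyclin A2) 17.0 and 16.5 TPM, and Ccnb2 (cyclin B2) 14.8 and 14.2 TPM. In TPM the order Cdk1, Ccnb1, Ccna2, Ccnb2 held in both pups without overlap. In expected counts Cdk1, at 802 and 982, stood below Ccnb1, at 1149 and 1416, and Ccna2, at 1261 and 1364. On coding transcripts alone Cdk1, at 19.2 and 21.2 TPM, overlapped with Ccnb1, at 18.2 and 20.2 TPM, so that step of the order is not resolved there. The log2 ratio of Ccnb1 to Ccnb2 was 0.45 ± 0.15 and that of Ccna2 to Ccne1, the cyclins of S phase and of its start, 1.05 ± 0.37. The phosphatases that activate Cdk1 differed in level, with Cdc25b at 12.6 and 9.84 TPM and Cdc25c at 4.11 and 3.66 TPM, a log2 ratio of 1.5 ± 0.13. Cdk1 exceeded Cdk2 by a log2 ratio of 2.33 ± 0.19, or 1.45 on protein-coding transcripts alone.

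Of the CDK inhibitors, Cdkn1a and Cdkn1b stood above the cyclins of mitosis in both pups and Cdkn3 below them. Cdkn1a (p21), an inhibitor under the control of p53, had 99.77 TPM in pup 1 and 74.99 TPM in pup 3. Cdkn1b (p27), which holds cells out of the cycle as they differentiate, had 29.7 and 35.0 TPM. The log2 ratio of Cdkn1b to Cdkn1a was -1.74 and -1.10, a mean of -1.42 ± 0.46, so p21 message was the higher in TPM in both pups. In expected counts the mean was -0.18, and pup 3 held 2546 counts of Cdkn1b and 2357 of Cdkn1a. The order in pup 3 thus rests on the length correction of TPM. Cdkn3, a phosphatase that acts on CDKs, had 6.11 and 5.68 TPM on 104 and 107 counts, the fewest of the 45 genes.

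Of the kinases of mitosis, Plk1 and Aurka stood above Bub1 and Ttk. Plk1, the Polo-like kinase of centrosome maturation and mitotic exit, had 8.71 and 9.04 TPM, and Aurka, the Aurora kinase of the spindle poles, 8.60 and 7.02 TPM. Bub1, the kinetochore kinase that marks centromeric chromatin, had 3.07 and 2.65 TPM. Ttk (MPS1), which starts the checkpoint signal, had 2.34 and 2.25 TPM. Neither of these last kinases overlapped with Plk1 or Aurka, and Bub1 exceeded Ttk in each pup.

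The chromosomal passenger complex corrects faulty attachments and directs cytokinesis, with Aurkb as its kinase, Incenp as scaffold and Birc5 and Cdca8 as targeting subunits. Birc5 (survivin) had 20.55 TPM in pup 1 and 24.98 TPM in pup 3, Cdca8 (borealin) 17.5 and 13.4 TPM, Incenp 16.0 and 9.76 TPM, and Aurkb 11.5 and 9.17 TPM. Birc5 was the highest subunit in each pup and Aurkb the lowest. With annotation M4 the lowest was Incenp instead, at 10.2 and 6.45 TPM, against 12.1 and 9.59 TPM of Aurkb. The pups differed in the balance of scaffold and survivin: the log2 ratio of Incenp to Birc5 was -0.36 in pup 1 and -1.35 in pup 3, a mean of -0.85 ± 0.70. In expected counts, with no such correction, its mean was 0.28, so its sign rests on the length correction of TPM. The ratio of the Aurora kinases, Aurka to Aurkb, was steady at -0.41 and -0.38.

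Among checkpoint proteins Bub3 stood apart. Bub3 (chr7:131560222-131571895), the adaptor that brings Bub1 and BubR1 to the kinetochore, had 103 TPM in pup 1 and 94.0 TPM in pup 3. Mad2l1 (MAD2), which binds Cdc20, had 15.1 and 18.3 TPM, and Bub1b (BubR1) 5.34 and 5.69 TPM. The 3 genes did not overlap. The log2 ratio of Bub1 to Bub1b, the paralogous partners of Bub3, was -0.93 ± 0.21.

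The genes of the APC/C reached from among the highest of the list to the lowest. Pttg1 (securin), which holds separase inactive, had 43.1 TPM in pup 1 and 38.7 TPM in pup 3. Ube2c, the E2 enzyme of the APC/C, had 31.7 and 24.5 TPM, and Cdc20, its activator, 19.9 and 21.6 TPM. Espl1, separase itself, had 1.28 and 1.85 TPM on 189 counts in each pup, the lowest mean level of the 45, although Cenpe and Anln were lower in pup 3. Its value in pup 1 lay outside the interval that the authors deposited for it, 1.65 to 3.54 TPM, so its level is uncertain. In log2, the ratio of securin to separase was 4.97 and 4.31, a mean of 4.64 ± 0.46. Cdc20 exceeded its checkpoint inhibitor Mad2l1 by 0.39 and 0.23 in log2 ratio, a mean of 0.31 ± 0.11, which was 1.25 on protein-coding transcripts alone and 0.05 with annotation M4.

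At the centromere, Cenpa (chr5:30666777-30674830), the histone H3 variant that marks it, had 35.1 TPM in pup 1 and 36.2 TPM in pup 3. The 4 subunits of the NDC80 complex, which grips microtubules, are known to be present in equal number in the protein complex, but their messages were not at equal levels. Spc25 had 17.58 and 21.04 TPM, Spc24 11.2 and 11.4 TPM, Nuf2 6.53 and 7.29 TPM and Ndc80 4.69 and 3.83 TPM. That order held in TPM in both pups, with no overlap between the subunits. In expected counts Nuf2, at 339 and 426, exceeded Spc24, at 309 and 331, so that step rests on the length correction of TPM. In log2, the ratio of Spc24 to Spc25 was -0.77 ± 0.16 and that of Nuf2 to Ndc80 0.69 ± 0.31. Ndc80 shares 303 bases at 95% identity with the pseudogene 2700099C18Rik, which held 118 and 131 counts beside 256 and 237 of Ndc80, so this gene's level is uncertain. Cenpf, a large protein of the nuclear matrix and kinetochore, had 11.98 and 7.17 TPM, and Cenpe, a kinetochore motor, 2.23 and 1.44 TPM. The Cenpe value of pup 3 lay at the lower edge of its deposited interval, 1.44 to 2.22 TPM.

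Genes of the spindle midzone and of cytokinesis spread over more than a factor of 10. Racgap1, the GAP of the centralspindlin complex, had 28.3 TPM in pup 1 and 25.2 TPM in pup 3. Prc1, which bundles midzone microtubules, had 19.8 and 15.1 TPM. Tpx2, the activator of Aurka on spindle microtubules, had 9.12 and 8.91 TPM. Hmmr, a microtubule-associated protein of the spindle, followed at 3.76 and 3.39 TPM. Ect2, the exchange factor that activates RhoA at the cleavage furrow, had 3.87 and 2.75 TPM, and Anln (anillin), the scaffold of the contractile ring, 1.98 and 1.72 TPM. The Ect2 value of pup 3 lay outside its deposited interval, 3.04 to 4.42 TPM. Ect2 and Hmmr overlapped, and the other neighbours in this group did not, although Hmmr and Anln did on coding transcripts alone. Mki67, which encodes the antigen Ki-67, had 3.29 and 1.89 TPM on 698 and 555 counts. Its leading transcript, Mki67-201, is 10061 bases long, and TPM divides by length. Cdk1, with 802 and 982 counts, exceeded Mki67 by a log2 ratio of 3.54 and 4.47 in TPM, and by a mean of 0.51 in expected counts.

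**Figure D3:**
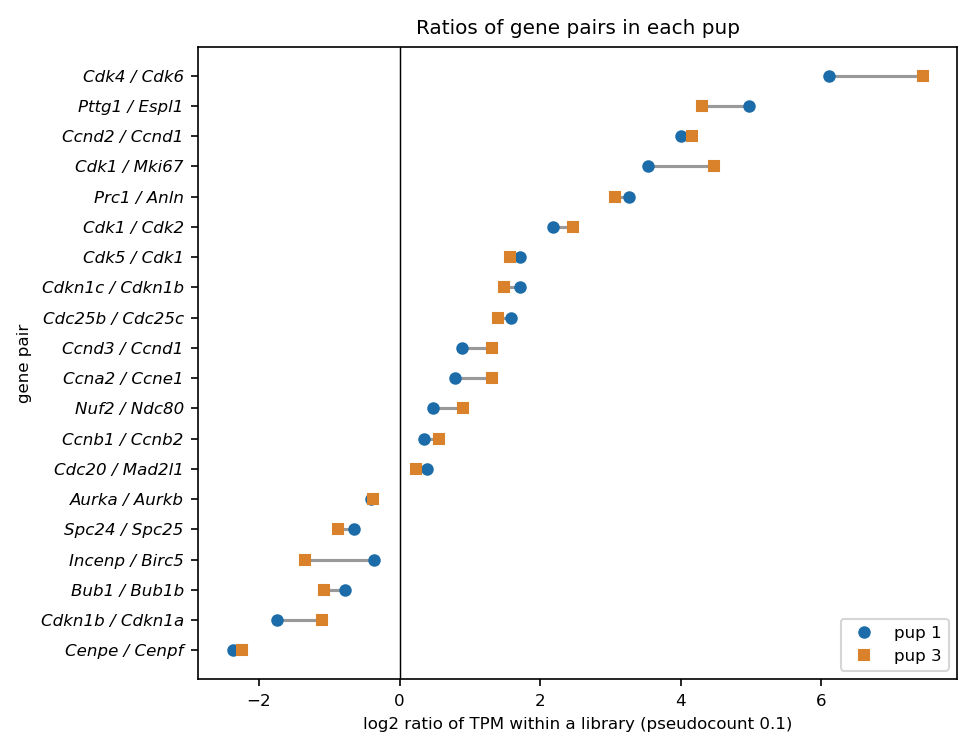
Log2 ratio of TPM (pseudocount 0.1) within each library for 20 gene pairs, with pup 1 as blue circles and pup 3 as orange squares joined by a line, and a vertical line at 0 where both genes are equal. Every pair lies on the same side of 0 in both pups, and the widest distance between the pups is in Cdk4 / Cdk6, at 6.11 and 7.44.

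Between the pups, most of the 45 genes lay within 1.5-fold of the all-gene median, as did most genes. Each difference is log2(TPM + 1) of pup 3 minus that of pup 1, a scale that understates changes of low genes. The median over all 15463 expressed genes was -0.24, and that over the 45 genes was -0.13, or 0.11 relative to all genes. In plain TPM, 15 of the 45 genes were higher in pup 3, against 20.2% of all genes. Relative to the all-gene median, 30 lay above and 15 below, against 49.0% of protein-coding genes above. The SD of the difference was 0.28 over the 45 genes and 0.39 over all genes. None lay more than 1.5-fold above the all-gene median, which 3.29% of all genes and 1.87% of protein-coding genes did. Below it by more than 1.5-fold lay 1, against 4.90% and 4.06%. With 1 animal on each side, none of these differences has a replicate check.

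The 1 gene past 1.5-fold was Cdk6, at -0.72 relative to all genes. Its CPM in pup 3 was 0.652 of that in pup 1 (95% exact interval 0.588 to 0.722, counting error only). Its transcripts are long on average, at 5441 bases, and relative to protein-coding genes of similar length its difference was -0.48. With TMM scaling of counts it was -0.46. It lay below the all-gene median in each of these settings. It was past 1.5-fold in TPM, FPKM, posterior mean TPM and TPM on coding transcripts, and not past it with scaled counts, with annotation M4 or beside genes of similar length. Short transcripts on few counts held much of its TPM. In pup 1, Cdk6-203 (697 bases, 39 counts) held 32.1% and Cdk6-205 (425 bases, 14 counts) 21.4%. In pup 3 they held 31.2% and 16.8%, on 19 and 6 counts. Cdk6-202 of 11525 bases, with 846 and 592 counts, had 2.84 and 1.76 TPM.

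The genes highest in pup 3 relative to all genes were Espl1, Birc5, Mad2l1, Spc25, Cdkn1b and Cdk4. For Espl1 the difference of 0.56 came with the same count, 189, in both pups, and with a fold in CPM of 0.994 (0.808 to 1.22). In pup 3, 5 counts on the 296-base retained intron transcript Espl1-206 made up 43.2% of the gene's TPM, and in pup 1 that transcript had none. On protein-coding transcripts alone its difference was 0.14. Birc5 (0.51), Mad2l1 (0.50), Spc25 (0.48), Cdkn1b (0.47) and Cdk4 (0.45) differed in counts as well. Relative to protein-coding genes of similar length, Birc5 was only at 0.19 and Cdk4 at 0.14. Mad2l1 was at 0.46, Spc25 at 0.31 and Cdkn1b at 0.50 there. On coding transcripts alone Cdk4 was at 0.60, past 1.5-fold. CPM in pup 3 was 1.32 (1.17 to 1.49) of that in pup 1 for Birc5, 1.33 (1.20 to 1.46) for Mad2l1 and 1.35 (1.21 to 1.51) for Spc25.

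After Cdk6, the lowest genes in pup 3 were Incenp and Cenpf, both at -0.43, Mki67 at -0.33 and Ccne1 at -0.27. Relative to protein-coding genes of similar length, Incenp was at -0.46, Cenpf at -0.37, Ccne1 at -0.31 and Mki67 only at -0.10. In pup 1, 8 counts on the 575-base transcript Mki67-202 made up 19.2% of the TPM of Mki67, and in pup 3 that transcript had none. CPM in pup 3 was 0.703 of that in pup 1 for Incenp, 0.755 for Cenpf, 0.790 for Mki67 and 0.760 for Ccne1. Over the 45 genes, the counting interval of this ratio lay above 1 in 16, below 1 in 11 and included 1 in 18. Over all genes it lay above 1 in 19.5% and below 1 in 43.8%.

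By role, the median difference relative to all genes was 0.31 for the 3 checkpoint genes, 0.26 for the 7 centromere and kinetochore genes and 0.22 for the 4 genes of the APC/C. It was 0.19 for the cyclins of S, G2 and M with Cdk1, 0.14 for the mitotic kinases and 0.06 for the G1 cyclins and CDKs. It was 0.15 for the CDK inhibitors and 0.09 for the spindle and cytokinesis genes. Of the roles with more than 1 gene, the chromosomal passenger complex was the only one with a median below 0, at -0.09, with 3 of 4 genes below. That rests on the TPM setting, where Aurkb was at -0.06. With TMM scaling of counts Aurkb was at 0.12, and on coding transcripts at 0.16, which left only Incenp and Cdca8 below.

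The difference between the pups also ran with transcript length. Over protein-coding genes, shorter transcripts were relatively higher in pup 3, with a Spearman rho of -0.50 between difference and length. Over the 45 genes it was -0.24. The 11 genes under 1500 bases had a median difference of 0.26, against 0.22 for 2989 protein-coding genes of that length, and the 10 genes of 3000 bases or more -0.03, against -0.16 for 4782. The 24 genes between these lengths stood at 0.12, against 0.01 for 5703. Relative to protein-coding genes in the same of 10 length bins, the median of the 45 genes was 0.09, with 28 above their bin's median, against 50% of protein-coding genes. There 1 gene, Espl1 at 0.72, lay more than 1.5-fold above, against 1.00% of protein-coding genes, and none more than 1.5-fold below, against 3.38%.

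**Figure D4:**
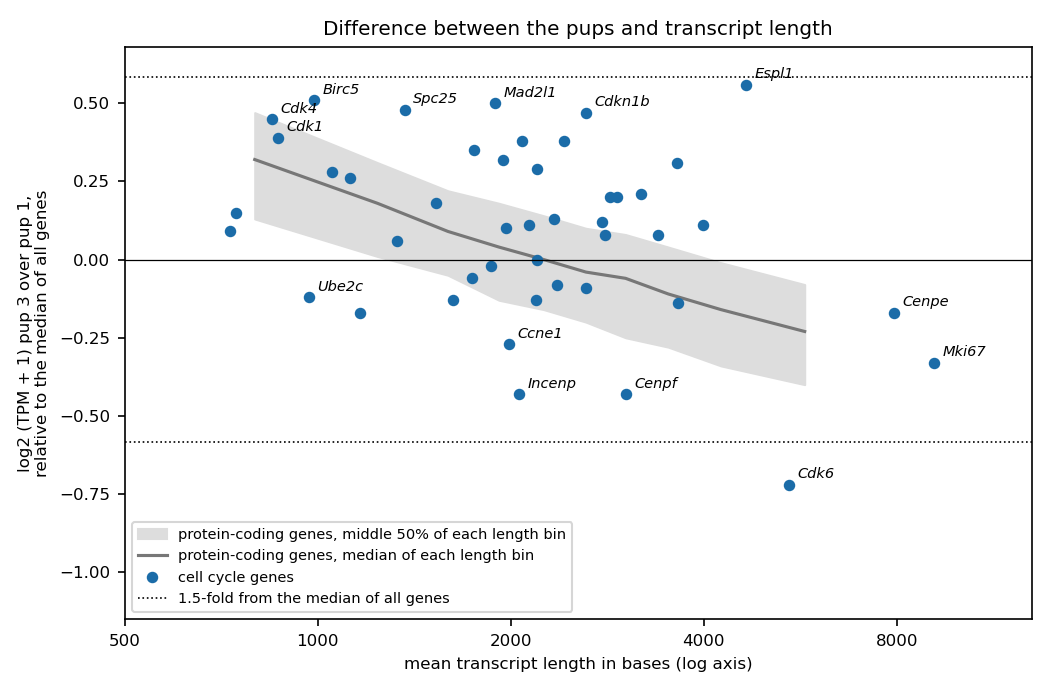
Difference between the pups (log2 of TPM + 1, pup 3 over pup 1, relative to the median of all genes) against mean transcript length in bases (log axis) for the 45 genes (blue points), with the median and middle 50% of protein-coding genes in 10 length bins (grey) and dotted lines at 1.5-fold. The grey band falls from short to long transcripts, most blue points lie within 0.5 of 0, and Cdk6, at -0.72, is the only point past a dotted line.

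The gene levels rest on transcripts of several kinds. The leading transcript, the 1 with the highest mean TPM, was annotated as protein coding in 41 of the 45 genes, against 90.9% of 13474 protein-coding genes. The median share of a gene's TPM on protein-coding transcripts was 96.8%, against 95.1%. Over 95% of TPM was on coding transcripts in 24 genes, against 50.2% of genes, and under 50% in 4, against 9.86%. Those 4 were Cdk4, Cdkn3, Cenpa and Cdk1.

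For Cdk4, the highest gene in TPM, the leading transcript was Cdk4-209, a retained intron transcript of 468 bases, with 39.5% of the gene's TPM in pup 1 and 39.4% in pup 3. Protein-coding transcripts held 28.1% and 31.4% of the TPM, or 152 and 197 TPM, and 48.5% and 52% of the counts. On coding transcripts Cdk4 thus stood below Ccnd2, which had 273 and 240 TPM, and above every other gene of the list. For Ccnd2, in turn, the leading transcript was Ccnd2-206 of 627 bases, with 45.4% and 43.3% of the TPM. The transcript Ccnd2-201 of 6330 bases held 12.8% and 12.1% of the TPM but 8032 of 12623 counts in pup 1 and 7554 of 12152 in pup 3.

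For Cdk1, 51.0% and 51.8% of the TPM lay on transcripts under 500 bases, the retained intron transcripts Cdk1-203 and Cdk1-204. The coding transcript Cdk1-202 held 46.9% of the TPM in both pups. Cenpa was led by Cenpa-202, marked for nonsense-mediated decay, with 47.3% and 45.7%, and Cdkn3 by the processed transcript Cdkn3-202 with 73.1% and 62.9%. Mad2l1 was divided between the retained intron transcript Mad2l1-203 (51.9% and 47.6%) and the coding Mad2l1-201 (44.5% and 49.5%). For Ccnd1, the retained intron transcript Ccnd1-202 of 470 bases took 49.7% and 33.7% of the TPM on 115 and 70 of 1261 and 1400 counts. On coding transcripts Ccnd1 was level between the pups, at 12.1 and 12.3 TPM. Plk1, Aurka, Ccnb2, Ube2c, Birc5, Cdkn1a, Cdkn1b, Nuf2, Cenpe and Mki67 had 100% of their TPM on coding transcripts in both pups.

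**Figure D5:**
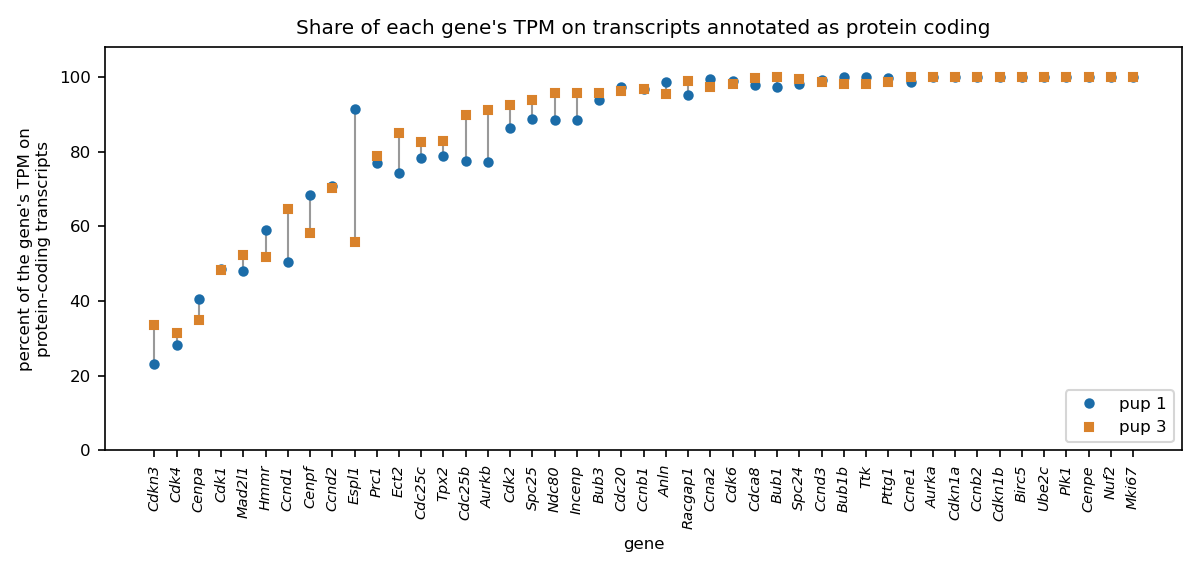
Percent of each gene's TPM on transcripts annotated as protein coding, in pup 1 (blue circles) and pup 3 (orange squares), with genes ordered by their mean. Cdkn3, Cdk4, Cenpa and Cdk1 lie under 50% at the left, and Espl1 shows the widest distance between the pups, 91.3% against 55.7%.

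Neighbouring and copied genes add uncertainty to some members, since strand is not stated for these libraries. Exons of genes on the opposite strand overlapped several of them, among them Cdk4 (Tspan31, 641 shared bases, 2930 and 2735 counts) and Ccna2 (Exosc9, 510 bases). Ccnd3 (Bysl, 361 bases), Ccnd1 (LTO1, 1100 bases) and Prc1 (Rccd1, 911 bases) were overlapped as well. Further cases included Cdca8 (9930104L06Rik, 232 bases, 513 and 368 counts), Cdc25b (Spef1, 92 bases, 497 and 424 counts), Cdc20 (Elovl1, 53 bases) and Cdc25c (Gm3550, 623 bases). Reads in the shared bases cannot be told apart. Copies of at least 95% identity over 200 bases were found for 7 of the 45 genes. Other than the Ndc80 copy, none held more than 5 counts in a pup, among them the 4 pseudogenes of Ccnb1, the nearest of which, Ccnb1-ps, is 99.2% identical over 1287 bases.

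Other genes of the same machinery, in lists drawn up beside the 45, gave their setting. The 15 S-phase genes, none missing, had a median of 15.1 ± 0.559 TPM, led by Pcna, the sliding clamp of DNA replication, at 105 ± 4.07 TPM, Mcm7 at 54.6 ± 1.41 TPM, Rrm2 at 40.9 ± 0.877 TPM and Mcm6 at 30.7 ± 3.86 TPM. Their median difference was 0.27 relative to all genes, with 12 of 15 above. The mitotic kinesins were lower, with 10 of 12 detected at a median of 3.66 ± 0.477 TPM, led by Kif22 at 13.7 ± 0.0636 TPM, Kif23 at 6.70 ± 0.127 TPM and Kif20a at 5.15 ± 0.141 TPM. Kif18b and Kif14 lay under 1 TPM. Condensin and cohesin subunits passed 1 TPM in 13 of 13 cases, with a median of 18.3 ± 4.16 TPM, with Ncaph2 at 77.0 ± 2.01 TPM and Smc1a at 46.3 ± 3.56 TPM.

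Of 26 other kinetochore and centromere genes 24 were detected. Their median of 6.5 ± 0.898 TPM lay under the 9.57 ± 2.74 TPM of the 7 listed ones. Zwint stood apart at 712 ± 95.4 TPM, above Cdk4. Zwint links the kinetochore to the RZZ complex and is also known as a neuronal protein. Next were Cenpt at 33.2 ± 3.05 TPM, Hjurp, the chaperone of Cenpa, at 26.3 ± 9.62 TPM and Ska2 at 24.5 ± 1.79 TPM. The 14 genes of the APC/C with its regulators Fzr1 and Fbxo5 were present without exception, their median being 66.0 ± 3.43 TPM, led by Anapc5 at 332 ± 50.6 TPM and Anapc11 at 175 ± 6.12 TPM. Fzr1 (CDH1), the other activator of the APC/C, had 109 and 102 TPM, against 19.9 and 21.6 TPM of Cdc20.

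Upstream regulators of the list were lower. Of 19 genes of the RB, E2F and DREAM families, 17 passed 1 TPM, with a median of 4.90 ± 1.53 TPM, led by Tfdp1, the partner of E2F factors, at 72.1 ± 11.2 TPM, Lin37 at 41.6 ± 3.14 TPM and E2f4 at 25.2 ± 0.134 TPM. E2f2 and E2f8 lay under 1 TPM on average. Other CDK inhibitors included Cdkn1c (p57) at 98.4 ± 0.530 TPM and Cdkn2d (p19) at 90.1 ± 10.3 TPM, both above Cdkn1b. The log2 ratio of Cdkn1c to Cdkn1b was 1.61 ± 0.16. Cdkn2a, the locus of p16 and p19ARF, had 0 counts in both libraries.

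The other cyclins and CDKs differed widely in level. Of 10 other CDKs and activators 9 were detected, with a median of 33.1 ± 4.35 TPM and Cdk18 under 1 TPM on average. Cdk5, the kinase of postmitotic neurons, had 129 and 131 TPM, above Cdk1 by a log2 ratio of 1.64 ± 0.10, and its activator Cdk5r1 (p35) had 96.6 ± 0.276 TPM. Of 12 other cyclins 11 were detected, with a median of 13.7 ± 1.61 TPM, led by Ccni at 99.9 ± 14.5 TPM and Ccnh at 64.5 ± 8.25 TPM, while Ccnb3 was at 0.00500 TPM. All 10 genes of p53 and its targets, the pathway that acts on Cdkn1a, were detected, and their median was 21.5 ± 4.99 TPM, with Bax at 232 ± 6.05 TPM and Trp53 at 45.4 ± 2.99 TPM. The 1 gene of that list more than 1.5-fold lower in pup 3 was Mdm2, named after its values were seen, at 24.97 and 13.18 TPM.

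Markers of cell types that divide at this age were measured beside the 45 genes. All 10 radial glia markers passed 1 TPM, with a summed 2711 TPM in pup 1, 2772 TPM in pup 3 and a median difference of -0.03. Most of that sum was Fabp7, at 2151 and 2326 TPM, and the other 9 summed to 560 and 446 TPM, with 8 of 9 lower in pup 3. Of 8 intermediate progenitor markers 7 were detected, at a summed 191 and 205 TPM and a median difference of 0.26, with Eomes at 4.01 and 3.8 TPM and Neurog1 at 0.00 and 0.04 TPM. The 7 markers of oligodendrocyte precursors summed to 180 and 147 TPM, with a median difference of -0.25 and 6 of 7 below the all-gene median. Ganglionic eminence markers summed to 176 and 134 TPM, with a median difference of -0.02. Microglia markers summed to 136 and 142 TPM, with a median difference of 0.40 and 5 of 7 above the all-gene median. Endothelial markers summed to 149 and 146 TPM, with a median difference of 0.14. Meningeal markers summed to 295 and 303 TPM, with a median difference of 0.18, 6 of 7 above and 2 past 1.5-fold, Dcn and Lum, which were named after their values were seen.

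Diencephalic and erythroid markers had the medians farthest from 0 of the marker lists. All 4 diencephalic markers compared were lower in pup 3, with a median difference of -1.03, with 3 of them past 1.5-fold and a summed 280 TPM in pup 1 against 106 TPM in pup 3. Erythroid markers summed to 1646 and 2331 TPM, with a median difference of 0.54, 4 of 4 compared above the all-gene median and Epb42 under 1 TPM in both pups. Neuronal markers summed to 5469 and 4786 TPM, with a median difference of 0.01. The part of these markers in the differences of the 45 genes was not tested.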

How the data were processed

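RNA of 2 forebrains, taken with mirVana, was amplified by oligo-dT priming with SMARTer and tagmented with Nextera, per the labels' protocols. The authors deposited expected counts, TPM and FPKM per gene, and expected counts, TPM and the percent of a gene's TPM per transcript, on mm10 with annotations M21 and M4. These columns are named as in RSEM, per the file headers. The aligner, quantifier, their versions and the strand: not given in the sources used here.

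Members and lists were chosen with earlier results of these data known. Of 81881 features, 26248 with number-only identifiers were left out. Levels are M21 TPM, and a gene is detected where neither pup falls under 1 TPM. Differences are log2(TPM + 1), pup 3 over pup 1, relative to the median of expressed genes (1 TPM or more on average). Pair ratios add 0.1 to each TPM. Ratios of counts carry exact 95% binomial intervals, which cover counting error only, since reads carry no molecular identifiers. With 1 group, no count model was tested. edgeR 4.0.16 and DESeq2 1.42.0 (R 4.3.3) gave library scaling alone, and scripts used Python 3.11.15, pandas 2.3.3, numpy 2.4.6 and scipy 1.17.1. Of the steps, only the formula of the relative difference was tested on simulated counts, which held no trend with length. Copies were sought with blastn 2.17.0.

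All 45 genes may be named, with the 4 highest by mean TPM of each other list, any gene needed to state a level under 1 TPM, and both genes of a pair. Nothing in the labels says that the pups came from separate litters. Alternatives were FPKM, posterior mean TPM, other scalings, pseudocounts and minimums, annotation M4, length bins, coding transcripts and leaving out each pup; the detected count on coding transcripts was added after seeing the data. M4 transcript tables and protein sequences were not used here, so a planned description of protein sequences was not run.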

Additional observations from a re-analysis of the deposited data

How the results depend on the processing

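The number of genes detected stayed at 45 under every alternative except a minimum of 5 TPM, which 34 passed. The median level of 11.3 TPM was 9.29 TPM on protein-coding transcripts and ran from 9.84 to 12.6 TPM when either replicate was left out. The median difference of 0.11 was 0.00 with no filter on low genes, where 23 genes lay above the all-gene median and 22 below, and 0.05 to 0.14 in the other settings. The number of genes over 1.5-fold apart, 1 in TPM, was 0 with TMM, DESeq2 size factors, unscaled CPM or annotation M4. It was 2 with a pseudocount of 0.1 (Espl1 and Cdk6) and 3 on coding transcripts (Cdk4, Cdk6 and Cenpf). Of 20 pair ratios, 1 changed sign: Incenp to Birc5, from -0.85 in TPM to 0.28 in expected counts. Beyond the spread between pups, 16 others moved in expected counts, 10 on coding transcripts, 6 with M4 and 5 with a pseudocount of 1, without a change of sign. The causes were not tested. No paired analysis was possible because the samples form 1 group. With 1 animal on each side, no difference between pups has a replicate check, and genes near 100 counts, such as Cdkn3, have wide counting intervals.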
